A study of Mus musculus with 4 samples.

Results

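Gamma-delta (γδ) T cells were described in mononuclear cells of dystrophic mouse muscle by single-cell RNA-seq. Cells were taken as γδ T cells from their own counts of unique molecular identifiers (UMIs, 1 per captured transcript). A member held at least 1 UMI of Cd3d, Cd3e and Cd3g together, which encode the CD3 chains of every T cell receptor, and at least 2 UMIs of Trdc, the constant region of the δ chain, and Cd163l1, a scavenger receptor of the CD163 family, together. It held no UMI of Ncr1 (NK cells), Pdgfra (fibroblasts) or Cdh5 (endothelium) and fewer than 10 UMIs of C1qa, C1qb and C1qc (macrophages). Among 31077 barcodes that passed the filters on depth, 218 met the rule: 15 in the mdx5cv quadriceps library, 24 in the mdx5cv/Ccr2-/- quadriceps library, 106 in the mdx5cv diaphragm library and 73 in the mdx5cv/Ccr2-/- diaphragm library. Where 4 values are given below, they are in this order.

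All mice were 14 weeks old and carried mdx5cv, a mutation that removes dystrophin and serves as a model of Duchenne muscular dystrophy. The groups were mdx5cv and mdx5cv/Ccr2-/-, which in addition lack the chemokine receptor CCR2, each as quadriceps and as diaphragm, with 1 library per group. The labels name neither the deleted part of Ccr2 nor the number of mice behind a library. With 1 library per group, differences between genotypes and between muscles have no replicate check and no p-value.

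γδ T cells carry a T cell receptor made of a γ and a δ chain in place of α and β chains. Many leave the thymus with their effector programme already set, and one set that arises in the fetal thymus joins the Vγ6 segment (Tcrg-V6) to the Vδ segment encoded by Trdv4, settles in tissues such as skin and lung and makes interleukin 17 (IL-17). IL-17 recruits neutrophils by acting on stromal and epithelial cells. CCR2 brings monocytes out of bone marrow and is also found on IL-17-producing lymphocytes.

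The 4 libraries held 5839 to 13175 deposited barcodes and 56399477 to 92189580 UMIs. The γδ cells had medians of 5990, 3879.5, 3328.5 and 5454 UMIs and summed to 95333, 96455, 358479 and 480672 UMIs, so the quadriceps values rest on few cells. Of 33450 barcode sequences, 104 occurred in more than 1 library, 2 members among them, and no barcode was a member in more than 1 library. Doublet scoring flagged 11 of the 218 members. RNA of other cells was concentrated in 13 members (2, 0, 5 and 6) that each held at least 20 UMIs of haemoglobin genes, of 4 fibroblast genes or of 8 myeloid and antigen-presentation genes. A single barcode of the mdx5cv quadriceps library held 5574 of the 5576 haemoglobin UMIs of that library's members, and 7 diaphragm members held 84.0% of the fibroblast UMIs of all members. Of the 13, 9 were among the barcodes flagged as doublets. Several results that rest on them are given with and without them.

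The 2 V segments most often found in the members are shown here. The rule used neither, though Trdv4 encodes part of the same δ chain as Trdc, which the rule did use. The second exon of Trdv4 (chr14:54075217-54075515, + strand) and the last 300 bases of the second exon of Tcrg-V6 (chr13:19190630-19190929, + strand) were read from the mouse genome build GRCm38 (mm10). Capitals mark the stretch from the conserved cysteine codon to the end of the segment, where rearrangement joins it to the next segment.
Trdv4: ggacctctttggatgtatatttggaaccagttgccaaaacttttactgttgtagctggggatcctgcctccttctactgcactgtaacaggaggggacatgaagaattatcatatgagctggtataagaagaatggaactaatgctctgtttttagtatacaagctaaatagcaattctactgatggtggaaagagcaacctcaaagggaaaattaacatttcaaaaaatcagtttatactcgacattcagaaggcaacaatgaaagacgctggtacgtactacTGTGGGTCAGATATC
Tcrg-V6: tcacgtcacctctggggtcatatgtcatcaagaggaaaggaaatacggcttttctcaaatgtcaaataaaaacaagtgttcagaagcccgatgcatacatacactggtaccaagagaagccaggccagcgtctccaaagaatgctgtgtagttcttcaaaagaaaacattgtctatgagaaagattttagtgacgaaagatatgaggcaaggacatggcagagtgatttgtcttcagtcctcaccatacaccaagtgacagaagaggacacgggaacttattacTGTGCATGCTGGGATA

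Trdv4 was detected in 202 of the 218 members (92.7%), and the share was even across libraries at 93.3%, 91.7%, 92.5% and 93.2%. Trdv4 stood at 850, 1420, 1213 and 901 CPM (UMIs of a gene per 1000000 UMIs of the cells summed) in γδ cells. In αβ T cells of the same libraries (at least 2 UMIs of Trac, Trbc1 and Trbc2, none of Trdc or Cd163l1, the rest of the rule as above, 328 cells) a single Trdv4 UMI was found. All 4 γδ values lay far above all 4 αβ values. Trdv4 and Trdc encode parts of the same δ chain, and the αβ gate allowed no Trdc UMI. The contrast with αβ cells, also after thinning, was therefore partly set by the gates. After thinning each cell to 1000 UMIs, 61.5% of γδ cells (exact binomial 95% interval 54.7 to 68.0) kept a Trdv4 UMI, against 0 of 327 αβ cells (up to 1.12%), 4.17% of NK cells and 0.0407% of fibroblasts, which served as background for free RNA. Before thinning the γδ, αβ, NK and fibroblast cells had median depths of 4114, 3693.5, 4053 and 8987 UMIs.

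Tcrg-V6 was found in 89 members, 86 of which also held Trdv4. It stood at 157, 238, 109 and 123 CPM in γδ cells and had no UMI in αβ cells, which made it at least 63.4-fold higher against the 3 counts that a count of 0 allows over the group. Trgv2, another Vγ segment, was found in 82 members and stood at 136, 114, 165 and 171 CPM, but it was also present in αβ cells (53.3, 78.2, 65.9 and 73.4 CPM). Its log2 ratio of 1.06 passed (edgeR adjusted p = 0.00431), though not without the mdx5cv diaphragm library (adjusted p = 0.118). Tcrg-V1 was found in 16 members, Tcrg-V5 in 10 and Tcrg-V4 in 9. Because a cell of median depth yields few UMIs of a V segment, a member without Tcrg-V6 is not shown to use another chain. Reads of Tcrg-C1, Tcrg-C2 and the Trgv genes can be split among near-identical copies, so their single values are uncertain. These 3′ counts do not give a full receptor for any cell.

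Just inside the rule, 5 members had exactly 2 UMIs of Trdc and Cd163l1 together, of which 2 held Trdv4. Just outside it, 12 barcodes had 1 UMI and met all other conditions, of which 2 held Trdv4 and 10 had at least 2 UMIs of Trac, Trbc1 and Trbc2. Among members, 159 had at least 2 UMIs of these αβ constant genes, nearly all of Trbc1 and Trbc2 (Trac in 32 members), while Cd4, Cd8a or Cd8b1 was found in 3. Trbc1 stood at 388, 321, 346 and 393 CPM and Trbc2 at 671, 539, 502 and 526 CPM in γδ cells.

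γδ cells made up 0.286% (exact binomial 95% interval 0.160 to 0.472), 0.352% (0.226 to 0.524), 0.842% (0.690 to 1.02) and 1.13% (0.889 to 1.42) of the kept barcodes. Both diaphragm libraries lay above both quadriceps libraries, with ratios of diaphragm to quadriceps of 2.94 (1.71 to 5.44) in mdx5cv and 3.21 (2.00 to 5.33) in mdx5cv/Ccr2-/- mice. With members holding any Trac, Trbc1 or Trbc2 UMI left out, the counts were 0, 2, 23 and 0 cells. The muscle ratio in mdx5cv/Ccr2-/- mice was then 0 (0 to 5.63), an interval that holds the main value of 3.21. So few cells cannot show which muscle was higher in that genotype. The ratio of mdx5cv/Ccr2-/- to mdx5cv was 1.23 (0.620 to 2.52) in quadriceps and 1.34 (0.984 to 1.83) in diaphragm. Both genotype intervals held 1, though the diaphragm interval did not under some alternatives given below. Among all CD3-positive barcodes without Ncr1, γδ cells made up 31.9%, 20.3%, 37.1% and 44.0%, and on that scale the diaphragm-to-quadriceps ratio in mdx5cv was 1.16. These intervals cover counting error only, and shares of barcodes do not give numbers of cells per muscle.

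**Figure D1:**
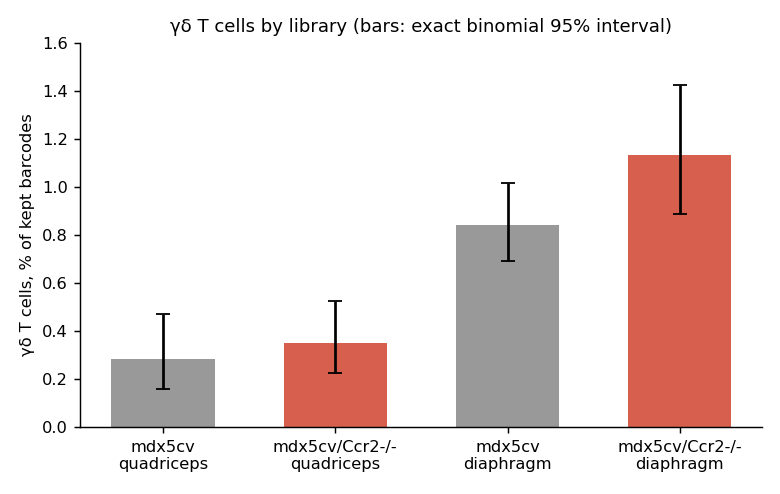
Percent of kept barcodes that were γδ T cells (y axis) in each of the 4 libraries (x axis, 1 library per group). Bars give the share and whiskers the exact binomial 95% interval. Both diaphragm libraries, at 0.842% and 1.13%, stand above both quadriceps libraries, at 0.286% and 0.352%.

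Genes other than those of the 2 gates were compared between γδ and αβ cells of the same libraries with edgeR's quasi-likelihood test, with library as a block and Benjamini-Hochberg adjustment over 8187 genes. The comparison called 246 genes higher (3.0%) and 268 lower (3.27%) in γδ cells, 514 in all (6.28%). Without the mdx5cv diaphragm library, which holds the most γδ cells, it called 115 and 136, and without the mdx5cv quadriceps library it called 151 and 209. Without the 11 αβ and 13 γδ cells rich in other cells' transcripts it called 344 and 450. The p-values measure the spread between 4 libraries, each of another group.

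**Figure D2:**
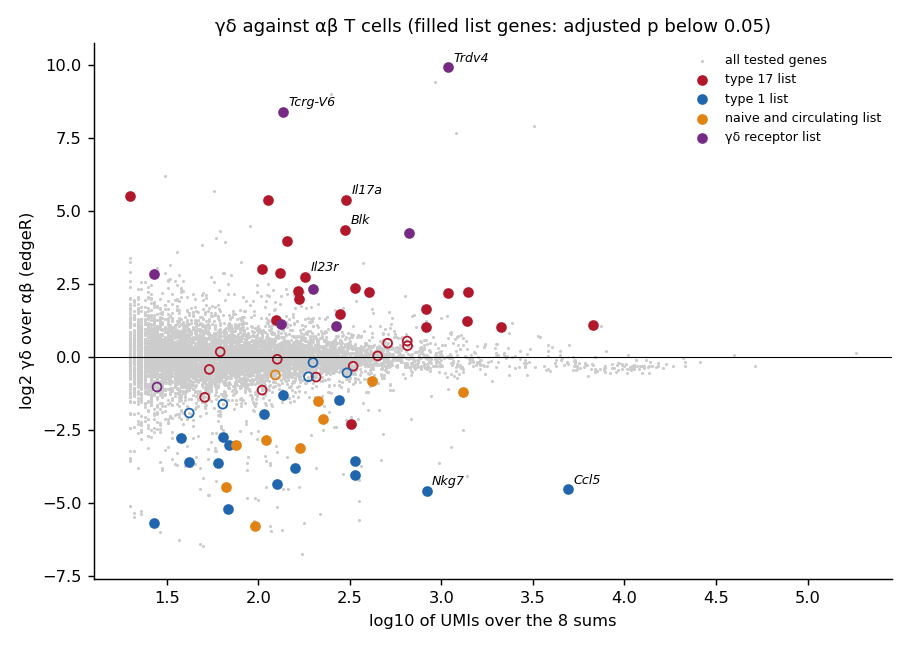
Log2 ratio of γδ over αβ T cells from edgeR (y axis) against the log10 of the UMIs summed over the 8 library sums (x axis) for all 8187 tested genes, with 4 gene lists in colour. Filled list genes passed an adjusted p of 0.05. Of the type 17 genes 21 of 33 lie filled above 0, and of the type 1 genes 16 of 21 lie filled below it.

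The signalling machinery behind the receptor differed in parts. Of 19 tested genes of CD3 and T cell receptor signalling, 2 were higher and 11 lower in γδ cells (median log2 ratio -1.13, against -0.02 over all tested genes). Lck, the kinase that starts signalling in conventional T cells, stood at 21.0, 0, 5.58 and 8.32 CPM in γδ cells and at 311, 265, 235 and 213 CPM in αβ cells, with no overlap (log2 -4.91, SE 0.34, adjusted p = 6.98e-11). Blk, a B-lymphoid relative of Lck, stood the other way, at 304, 384, 287 and 229 CPM in γδ cells against 0, 6.01, 17.8 and 16.1 CPM (log2 4.37, SE 0.31, edgeR adjusted p = 1.04e-10). After thinning, 0 of 218 γδ cells kept a Lck UMI (up to 1.68%) and 25.7% kept a Blk UMI, against 20.2% and 0.612% of αβ cells.

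Cd247, the ζ chain that carries the signal, was higher in γδ cells in 4 of 4 libraries (315, 332, 268 and 273 CPM against 133, 114, 80.2 and 80.3). Zap70, the kinase that binds it, passed as well (log2 1.11, edgeR adjusted p = 0.00756), but not without the mdx5cv diaphragm library (adjusted p = 0.0646). The costimulatory receptor Cd28 was at 0, 0, 2.79 and 29.1 CPM in γδ cells against 178, 271, 201 and 266 CPM in αβ cells. Cd2 (log2 -3.71), Cd5 (-2.50) and the adaptor Skap1 (-1.13) were also lower. Themis, needed for thymic selection of αβ T cells, was at 4 UMIs in γδ cells against 141. Cd6, a relative of Cd5, had 2 UMIs against 176, a ratio of 62.9 (interval 17.1 to 523).

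The type 17 programme, the genes of IL-17-producing lymphocytes, was higher as a group. Of 33 tested members 21 were higher and 1 lower in γδ cells, with a median log2 ratio of 1.28. Sox13, which sets the type 17 fate of γδ cells in the thymus, stood at 136, 114, 112 and 95.7 CPM against 0, 0, 0 and 6.88 CPM. Every γδ value lay above every αβ value, with a count ratio of 51.3 (interval 17.1 to 253). Maf, a factor of the same programme, was higher as well at log2 1.25.

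The receptors that drive IL-17 production were part of this. Il23r, the receptor of IL-23, stood at 136, 218, 162 and 119 CPM in γδ cells and at 8.88, 15, 30.3 and 20.6 CPM in αβ cells (log2 2.76, SE 0.30, adjusted p = 2.07e-07). Il1r1, the receptor of IL-1, stood at 94.4, 82.9, 140 and 93.6 CPM against 0, 21.1, 12.5 and 13.8 CPM. The groups did not overlap for either gene. Il7r, the receptor of the survival cytokine IL-7, was about as abundant in all 4 γδ sums (1227, 1389, 1258 and 1130 CPM) and higher than in αβ cells at log2 1.03. Il18r1 was higher at log2 1.04 and Ramp1, part of the receptor of the neuropeptide CGRP, at log2 1.66.

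Further type 17 members that were higher were the potassium channel Kcnk1 (log2 3.97), the water and glycerol channel Aqp3 (3.01), the leukotriene B4 receptor Ltb4r1 (1.48), the membrane proteins Tmem176a (2.24) and Tmem176b (2.21), the actinin Actn2 (2.36), the protease inhibitor Serpinb1a (2.23), Igf1r (1.99) and the calcium-binding S100a4 (1.12). Lgals3, which encodes galectin-3, was the 1 lower member, at 52.4, 31.1, 25.1 and 49.9 CPM against 240, 165, 253 and 131 CPM. Of its 41 UMIs in γδ cells, 51.2% lay in the members rich in other cells' transcripts. Il17a, Blk and Ccr6 were on the list too, and Ccr6 did not pass (log2 0.19, adjusted p = 0.922). At least 1 of Il23r, Blk, Sox13, Il1r1 and Kcnk1 was detected in 204 of the 218 members, and this held for 93.3%, 91.7%, 92.5% and 95.9% of members by library. These genes had all been called higher above, so this share describes the members and is no further test. Cells were not thinned for it, and it was not taken in αβ or NK cells. At least 1 of 7 type 1 genes (Cd27, Tbx21, Ifng, Eomes, Ly6c2, Nkg7, Ccl5) was detected in 20 members, and at least 2 of them in 5.

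**Figure D3:**
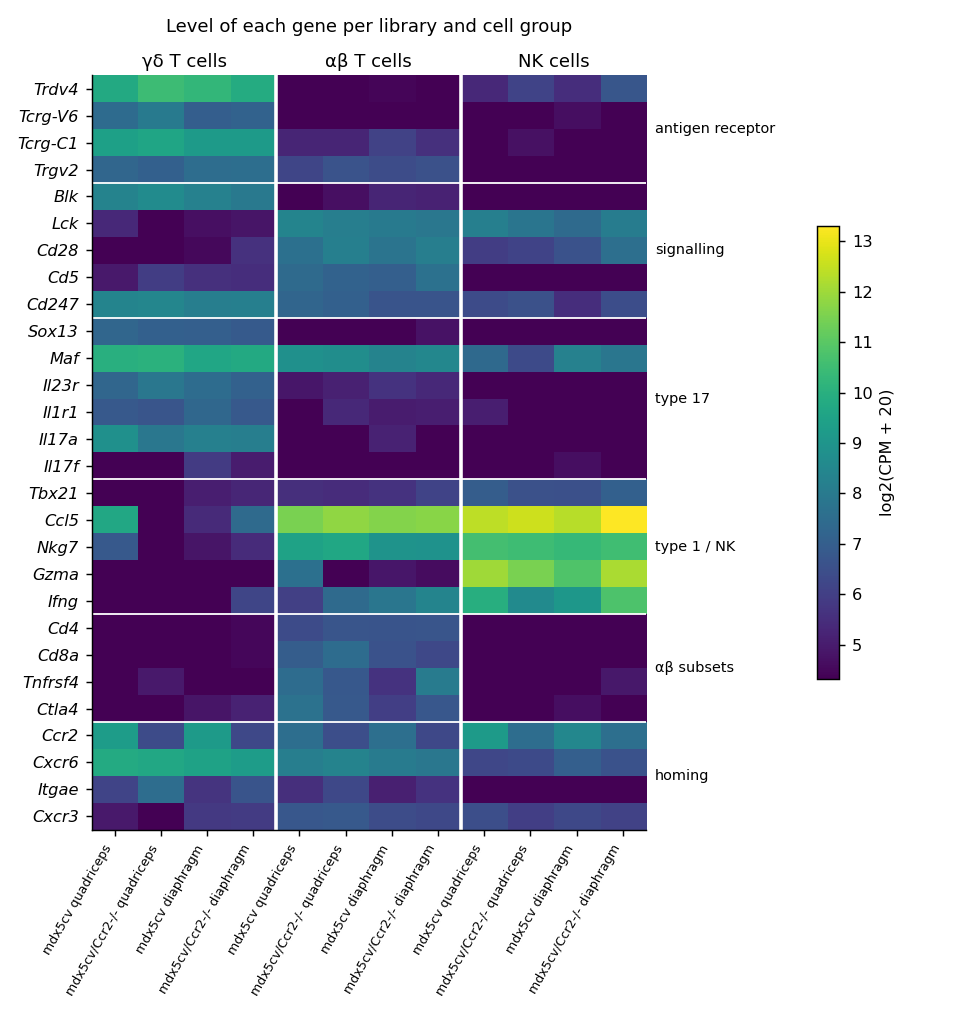
Level of 28 genes (rows, grouped by role) as log2(CPM + 20) in the 4 libraries of γδ, αβ and NK cells (columns). Trdv4, Blk, Sox13, Il23r and Il17a stand higher in all 4 γδ columns than in any αβ or NK column. Lck, Ccl5 and Nkg7 stand lower, though Ccl5 reaches 818 CPM in the γδ column of the mdx5cv quadriceps library. Among the γδ columns Ccr2 is bright in the 2 from mdx5cv mice.

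Il17a, which encodes the cytokine itself, had 41, 21, 101 and 129 UMIs in γδ cells (430, 218, 282 and 268 CPM), against 0, 0, 9 and 0 UMIs in αβ cells and 0 in NK cells. All γδ values lay above all αβ values (log2 5.40, SE 0.40, edgeR adjusted p = 2.56e-10). Of the 342 Il17a UMIs in all kept barcodes, 292 (85.4%) lay in the 218 γδ cells. The transcript was uneven between cells: 34 members held any (13.3%, 12.5%, 12.3% and 21.9% by library), 9 held at least 10 UMIs, and the 11 highest members held 74.3% of the UMIs. The highest single cell held 21, 18, 24 and 51 UMIs. Il17f, its close relative, had 0, 0, 14 and 6 UMIs.

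**Figure D4:**
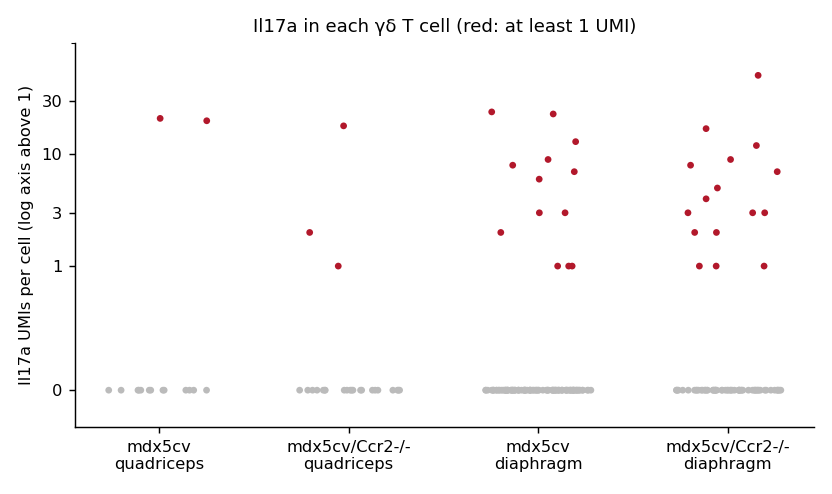
Il17a UMIs (y axis, log scale above 1) in each γδ T cell, by library (x axis). Each point is 1 cell, red with at least 1 UMI, and horizontal spread is random. In every library most cells stand at 0 and a few hold many UMIs, up to 51 in the mdx5cv/Ccr2-/- diaphragm library.

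Within the γδ cells, the 34 members with Il17a were set beside the 184 without, as a description of cells chosen by Il17a and with counting intervals only. Il17f was concentrated in them (16 of 20 UMIs). The early-response gene Fos was higher in them in 4 of 4 libraries (671, 570, 1411 and 1070 CPM against 306, 440, 624 and 559). The 2 quadriceps values with Il17a rest on 7 UMIs each, held by 2 cells in mdx5cv and 1 cell in mdx5cv/Ccr2-/- mice. Pooled over libraries, levels were also higher for the growth factor gene Csf2 (174 against 72.5 CPM), for Nfkbia, an inhibitor and target of NF-κB (840 against 440), and for the early-response gene Junb (3050 against 1808). Csf2 and Nfkbia were higher in both diaphragm libraries and lower in both quadriceps libraries, where 2 and 3 cells held Il17a, and Junb was lower in the mdx5cv quadriceps library. The pooled values of Il23r (ratio 1.17, 0.760 to 1.75) and Tnf (1.03, 0.591 to 1.71) did not differ beyond counting error. Ccr2 stood at 863, 0, 477 and 35.1 CPM with and at 577, 71.3, 595 and 62.7 CPM without Il17a, higher in 1 library and lower in 3. Median depth was 4910 UMIs with and 4030 without Il17a. The mdx5cv/Ccr2-/- diaphragm library gave 16 of the 34 cells and so weighs most in the pooled values. Among these 16 was a member rich in fibroblast transcripts, with 16906 UMIs in all and 1 of Il17a.

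The 29 members with no Cd163l1 UMI were shallower (median 3079 against 4139 UMIs). Trdv4 was found in 72.4% of them against 95.8% of the other 189, Il23r in 31.0% against 50.3%, and Il17a in 1 cell against 33. Ccl5 was found in 3 of the 29 and 2 of the 189, and Nkg7 in 3 and 3. The part of depth in these differences was not tested.

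Genes of type 1 and cytotoxic lymphocytes were lower in γδ than in αβ cells. Of 21 tested members 16 were lower and none higher (median log2 -3.02, or -2.76 with Gzma, at 0 UMIs, taken at its bound). Nkg7, a granule protein, stood at 94.4, 0, 8.37 and 22.9 CPM against 702, 800, 470 and 459 CPM. Ifng, the type 1 cytokine, stood at 0, 0, 0 and 54.1 CPM against 44.4, 150, 212 and 314 CPM, and all 26 of its γδ UMIs came from 4 cells of the mdx5cv/Ccr2-/- diaphragm library, 1 of which held 18. Cd27, a receptor that marks interferon-γ-producing γδ cells, had 4 UMIs in γδ cells against 122 (log2 -4.33). Ccl5 stood at 818, 0, 22.3 and 154 CPM against 2860, 3551, 3183 and 3344 CPM, and 5 members held all its UMIs, 1 of them 78 of 160.

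Genes of naive and circulating T cells were lower in 9 of 10 tested cases, among them Ccr7 (2 UMIs against 65), the egress receptor S1pr1 (-1.49) and the factors Lef1 (-3.09) and Klf2 (-1.19). Of 16 tested residency genes 4 were higher and 1 lower. Cxcr6, a receptor that holds lymphocytes in tissue, stood at 881, 809, 706 and 597 CPM in γδ cells and at 267, 307, 249 and 216 CPM in αβ cells, with no overlap (log2 1.43, SE 0.16, edgeR adjusted p = 3.26e-07). The integrin Itgae (log2 1.23) passed too but not without any of 3 of the libraries (adjusted p = 0.0567 to 0.105). Itgb7 was lost without the mdx5cv quadriceps (edgeR adjusted p = 0.142) or mdx5cv diaphragm library (0.310). Rgs2 was lost without the mdx5cv diaphragm (edgeR adjusted p = 0.123) or mdx5cv/Ccr2-/- quadriceps library (0.0632). The integrin Itga1 was lower at log2 -2.27, but did not pass without the mdx5cv diaphragm library (adjusted p = 0.0705).

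Among 10 tested chemokine receptors 2 were higher (Cxcr6 and Ccr2) and 4 lower, among them Ccr7, Cx3cr1 and Cxcr3. Cxcr3 did not pass when any of 3 libraries was left out (adjusted p = 0.172 to 0.194). Among 24 tested secreted factors 5 were higher and 10 lower. Csf2, which encodes GM-CSF, stood at 73.4, 72.6, 55.8 and 125 CPM against 17.8, 0, 19.6 and 13.8 CPM (log2 2.52, SE 0.43, adjusted p = 0.000201), and Tnfsf11, which encodes RANKL, at 73.4, 114, 103 and 79.1 CPM against 17.8, 3.01, 46.3 and 22.9 CPM. Neither pair of groups overlapped. Tnf passed (log2 1.25, adjusted p = 0.0131) but was lost when any of 3 libraries was left out (adjusted p = 0.147 to 0.208). Areg, which encodes the repair factor amphiregulin of regulatory T cells, stood at 0, 10.4, 11.2 and 10.4 CPM against 17.8, 39.1, 35.6 and 186 CPM. Without the mdx5cv/Ccr2-/- diaphragm library it did not pass (adjusted p = 0.100). Hbegf, a growth factor of the EGF family, was among the genes with the largest positive ratio, at 220, 207, 299 and 372 CPM and log2 3.22.

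Of 13 tested checkpoint and costimulation genes 3 were higher and 7 lower. Tnfrsf4, the costimulatory receptor OX40, had 1 UMI in γδ cells against 173, a ratio of 124 (interval 21.9 to 4911), and Ctla4 had 11 against 114 (log2 -3.04). The inhibitory receptor Pdcd1 was higher (log2 1.80, edgeR adjusted p = 0.00906) but not without the mdx5cv quadriceps (adjusted p = 0.0968) or mdx5cv diaphragm library (0.241). Il2ra, also higher, did not pass without the mdx5cv quadriceps (edgeR adjusted p = 0.204) or mdx5cv diaphragm library (0.529). Tnfrsf25 did not pass whichever library was left out (edgeR adjusted p = 0.0988 to 0.239). Of 29 tested interferon response genes 5 were lower and none higher, led by Ifi27l2a at 283, 20.7, 80.9 and 70.7 CPM against 1679, 403, 923 and 454 CPM. Of the 92 Ifi27l2a UMIs in γδ cells, 38.0% lay in the members rich in other cells' transcripts. Of 15 cell cycle genes none passed, and 9 members held at least 2 UMIs of Mki67 and Top2a. Of 16 lipid genes only Plin2, a lipid droplet coat protein, was higher (log2 1.35), and not without the mdx5cv diaphragm library (adjusted p = 0.111).

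Against 122 NK cells (no CD3, at least 2 UMIs of Ncr1 and Klrb1c), which share the γδ sums with the comparison above, edgeR called 263 genes higher (3.71%) and 227 lower (3.20%) of 7088, 490 in all (6.91%). Without the 5 NK and 13 γδ cells rich in other cells' transcripts it called 377 and 387, without the mdx5cv diaphragm library 137 and 171, and without the mdx5cv quadriceps library 155 and 156. Of 32 tested type 17 genes 25 were higher and none lower. Il23r, Sox13, Blk, Il17a, Kcnk1 and Actn2 had no UMI in NK cells. Against the 3 counts that 0 allows they were at least 29.1-fold (Il23r), 21.5-fold (Sox13), 54.6-fold (Blk) and 57.1-fold (Il17a) higher in γδ cells. Ltb4r1 had 1 UMI in NK cells against 188.

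In the other direction 20 of 21 type 1 genes were lower than in NK cells. Gzma, the granzyme A gene, had no UMI in γδ cells and 1874 in NK cells, which made it at least 1064-fold lower. The carbonic anhydrase Car2 was at least 128-fold lower and the NK receptors Klra4 and Klra8 at least 104-fold and 99.4-fold lower. Ccl4 (13 against 1055 UMIs), Ccl3 (3 against 294) and Xcl1 (19 against 1076), chemokines of activated NK cells, were also lower. Lck was lower than in NK cells as well (log2 -4.62, edgeR adjusted p = 5.53e-07). Trdv4 had 25 UMIs in NK cells, and Trdc was found in 15 of the 122.

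Haemoglobin genes were called higher in γδ cells in both comparisons (4 of 4 tested erythroid markers), and the 1 barcode described above held nearly all of those UMIs. The summed erythroid markers stood at 58637, 0, 5.58 and 2.08 CPM. Cd79b, a B cell receptor component, was higher than in αβ cells. It was spread over 36 members with at most 3 UMIs in any, and members rich in other cells' transcripts held 19.6% of its UMIs. Cd79a or Ms4a1 was found in 3 members, and all 29 Cd79a UMIs lay in the rich members.

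The gene targeted in the knockout was examined first in the genotype comparison. Ccr2 (chr9:124101950-124113557, + strand, GRCm38) had 58, 6, 207 and 27 UMIs in γδ cells, or 608, 62.2, 577 and 56.2 CPM. Both mdx5cv libraries were high and both mdx5cv/Ccr2-/- libraries low, with ratios of 0.102 (exact conditional binomial 95% interval 0.0361 to 0.236) in quadriceps and 0.0973 (0.0626 to 0.146) in diaphragm. Without the 13 members rich in other cells' transcripts the values were 707, 62.2, 614 and 65.5 CPM. Ccr2 differed little between muscles (diaphragm over quadriceps 0.949 and 0.903). As the deleted part of the gene is not known here, 3′ counts that remain do not show a functional transcript.

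In αβ cells Ccr2 stood at 169, 69.2, 175 and 57.3 CPM (ratios 0.410 and 0.328) and in NK cells at 571, 166, 338 and 173 CPM (ratios 0.291 and 0.511). In the mdx5cv libraries γδ cells lay above αβ cells and in the mdx5cv/Ccr2-/- libraries they did not, so the call of Ccr2 over αβ cells (log2 1.07, edgeR adjusted p = 0.0171) came with 2 of 4 libraries higher and was lost without the mdx5cv quadriceps (adjusted p = 0.324) or mdx5cv diaphragm library (0.528). In diaphragm the interval of the γδ ratio lay below those of αβ (0.203 to 0.514) and NK cells (0.286 to 0.871), and in quadriceps it overlapped both (0.214 to 0.796 and 0.181 to 0.455). The differences between cell groups were not tested. After thinning, 27.5% of γδ cells of all libraries held a Ccr2 UMI, against 0.155% of fibroblasts.

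**Figure D5:**
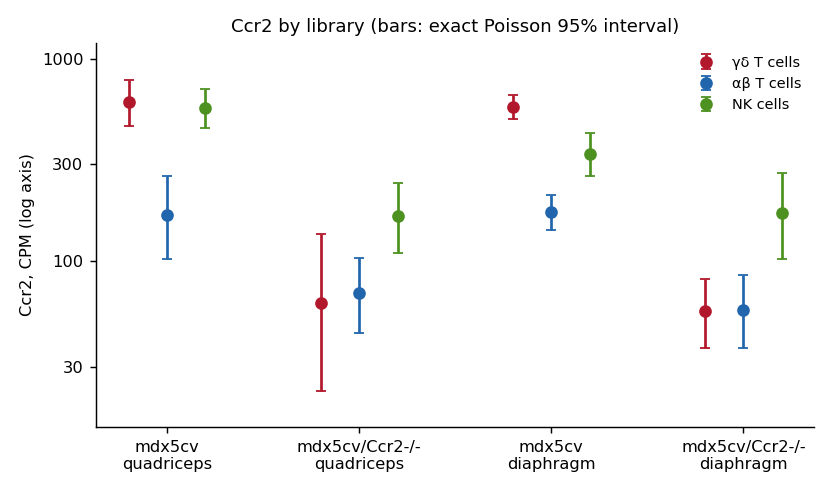
Ccr2 in CPM (y axis, log scale) by library (x axis) in γδ, αβ and NK cells. Points give the summed level and whiskers the exact Poisson 95% interval. γδ cells stand at 608 and 577 CPM in the mdx5cv libraries and at 62.2 and 56.2 CPM in the mdx5cv/Ccr2-/- libraries.

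Over 1298 genes with at least 100 UMIs in γδ cells, 72 were past 2-fold higher (5.55%) and 41 lower (3.16%) in the mdx5cv/Ccr2-/- quadriceps, and 16 higher (1.23%) and 3 lower (0.231%) in the diaphragm. With totals scaled by TMM the quadriceps split was 40 higher and 57 lower. The median log2 ratio over these genes was 0.12 and 0.01, and -0.08 and -0.03 with TMM. Past 2-fold in both muscles were 6 genes higher (0.462%) and 3 lower (0.231%). The 6 higher were Col3a1, Thbs4, Sparc, Mgp, Col1a2 and Cd63, which apart from the tetraspanin Cd63 encode matrix proteins of fibroblasts. The summed fibroblast markers of the γδ members (7 of 8 with a UMI, Pdgfra at 0 by the rule) stood at 231, 715, 1900 and 3168 CPM. Without the members rich in other cells' transcripts none of the 6 remained past 2-fold in both muscles. Col3a1 then stood at 24.8, 218, 106 and 118 CPM, and the diaphragm ratio of Cd63 turned from 2.24 (1.495 to 3.426) to 0.235 (0.0421 to 0.890).

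The 3 lower genes were Ccr2, Traf1 and Ly6a. Traf1, an adaptor of TNF receptor signalling and NF-κB target, had 22, 9, 53 and 28 UMIs (231, 93.3, 148 and 58.3 CPM), with both mdx5cv/Ccr2-/- values below both mdx5cv values. Its ratios were 0.404 (0.164 to 0.914) and 0.394 (0.240 to 0.634), and 0.342 and 0.405 without the rich members. In αβ cells the Traf1 ratios were 0.536 and 1.57. Ly6a, the surface protein Sca-1, had 9, 2, 77 and 21 UMIs, 29.4% of them in the rich members, and the interval in quadriceps held 1 (0.0231 to 1.06).

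Of 24 measured type 17 genes none was past 2-fold in either muscle, with medians of 0.06 and -0.10 on the log2 scale, and likewise for 6 receptor genes. Cxcr6 had ratios of 0.918 (0.666 to 1.26) and 0.846 (0.712 to 1.01). Il17a had ratios of 0.506 (0.284 to 0.877) in quadriceps and 0.953 (0.729 to 1.25) in diaphragm. Without the rich members these were 0.428 (0.241 to 0.742) and 1.09 (0.835 to 1.43), so Il17a was then past 2-fold lower in quadriceps. The mdx5cv quadriceps value rests on 2 cells with 41 UMIs together, and the intervals, which take each UMI as independent, are too narrow for a transcript held by so few cells.

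Between muscles, 82 genes were past 2-fold higher (6.32%) and 12 lower (0.924%) in the diaphragm of mdx5cv mice, and 53 higher (4.08%) and 6 lower (0.462%) in mdx5cv/Ccr2-/- mice. In both genotypes 21 were higher (1.62%) and 0 lower. With TMM-scaled totals the mdx5cv/Ccr2-/- counts were 91 and 3. By size the 10 leading genes were the fibroblast genes Dcn, Ogn, Mgp, Serpinf1, Meg3, Sparc, Bgn, Aebp1 and Col3a1 and the early-response factor Nr4a1. Dcn had 2, 6, 287 and 487 UMIs, 89.9% of them in the rich members. Without these members 7 genes were higher in both genotypes and none lower, among them Nr4a1, Junb, Vps37b, Hsp90aa1, Sik1 and Ddx3x.

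Nr4a1, a factor induced rapidly by receptor signals and by cell dissociation, had 2, 3, 34 and 87 UMIs in γδ cells (21.0, 31.1, 94.9 and 181 CPM). Both diaphragm values lay above both quadriceps values, with ratios of 4.52 (1.16 to 38.8) and 5.82 (1.93 to 28.8). The ratios in αβ cells were 1.92 and 2.49 and in NK cells 3.76 and 16.9. Junb, of the AP-1 family, stood without the rich members at 905, 1078, 2394 and 2564 CPM. In NK cells, all kept, Junb stood at 870, 801, 2318 and 3459 CPM. Of 16 measured genes induced by tissue dissociation 12 were higher in the diaphragm in both genotypes by any amount, against 433 of all 1298 measured genes (33.4%). With TMM-scaled totals these counts were 14 and 703 (54.2%). Past 2-fold were 7 of the 16 in mdx5cv and 4 in mdx5cv/Ccr2-/- mice, and the summed level of all 17 genes of that list was 11570, 11871, 19491 and 17946 CPM. The rise in the diaphragm was shared by αβ cells (10882, 9987, 15528 and 17422 CPM) and NK cells (11537, 10783, 18506 and 26781 CPM). The labels say nothing of how the muscles were dissociated, and its part in these differences cannot be told apart from that of the muscle. Of 24 measured type 17 genes 1 was past 2-fold higher in the mdx5cv diaphragm.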

How the data were processed

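Single mononuclear cells of 4 libraries (10x 3′ chemistry, per the labels' protocols) were quantified by the authors with Cell Ranger 6.1.2 on mm10, per the submitters' processing notes, and deposited as raw UMI counts of 32285 genes. Barcodes needed 500 UMIs, 300 genes and no more than 15% of UMIs from mitochondrial genes. The members, gates and gene lists were chosen with earlier results of these data known. UMIs were summed per library and cell group. γδ sums were compared with αβ and NK sums in R 4.3.3 with edgeR 4.0.16 (TMM, quasi-likelihood test, library as a block, at least 20 UMIs over the 8 sums, genes used by either gate not tested, Benjamini-Hochberg adjusted p below 0.05) after a check on simulated data. DESeq2 1.42.0 was an alternative. Genotype and muscle ratios of CPM had 1 library per group and no test. They used genes with at least 100 UMIs, a pseudocount of 20 CPM and a 2-fold limit. Shares carry exact Clopper-Pearson and CPM ratios exact conditional binomial 95% intervals (scipy 1.17.1), for counting error only. A count of 0 was taken to allow 3 counts. Doublets were scored with Scrublet (scanpy 1.11.5) at 0.8% per 1000 barcodes and kept, with their removal as an alternative. Genes named were those of the lists, the 10 largest log2 ratios per direction among called genes with at least 100 UMIs and 1 sign in all 4 libraries, and the 10 largest smaller-of-2 ratios. Trbc1, Trbc2, the genes set beside Il17a and those left in both genotypes without rich members were named after their values were seen. Some genes of the lists are not reported here.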

Additional observations from a re-analysis of the deposited data

Results flagged for a closer look

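Ccl5, which encodes a chemokine of type 1 lymphocytes, moved in opposite directions in the γδ cells of the 2 muscles. The log2 ratio of mdx5cv/Ccr2-/- over mdx5cv was -5.39 in quadriceps and 2.04 in diaphragm, and the log2 ratio of diaphragm over quadriceps was -4.31 in mdx5cv and 3.12 in mdx5cv/Ccr2-/- mice. The difference was not tested. Ccl5 had 78, 0, 8 and 74 UMIs in 1, 0, 1 and 3 cells, so that 1 cell of the mdx5cv quadriceps library set both values of that library.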

How the results depend on the processing

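No paired analysis was possible between genotypes or muscles because each group has 1 library and the replicate number 1 pairs nothing. The γδ, αβ and NK sums of a library were paired by the library block, and without it 203 genes were called higher and 179 lower than in αβ cells, and 297 and 243 against NK cells. Of 192 alternative values of the main results 133 stayed within the limits set for them. The share of kept barcodes became 0%, 0.0294%, 0.183% and 0% when members with any Trac, Trbc1 or Trbc2 UMI were left out. The genotype ratio in the diaphragm was then 0 (0 to 0.340), and the muscle ratio in mdx5cv/Ccr2-/- mice 0 (0 to 5.63). Members of the mdx5cv and mdx5cv/Ccr2-/- diaphragm libraries had medians of 3328.5 and 5454 UMIs and minima of 1231 and 3704. The part of depth in that genotype ratio was not tested. With a stricter cell filter the ratio was 1.38 (1.012 to 1.883). With at least 3 UMIs of Trdc and Cd163l1 it was 1.38 (1.005 to 1.881). After thinning to 1000 UMIs the share was 0.661% and 0.842% in the 2 diaphragm libraries. Over T-lineage barcodes it was 31.9%, 20.3%, 37.1% and 44.0% (muscle ratio 1.16 in mdx5cv). DESeq2 called 114 genes higher and 155 lower than in αβ cells, and 121 and 144 against NK cells. With 1 library left out at a time, calls ran from 115 to 216 higher and 136 to 229 lower against αβ cells, and from 137 to 205 and 156 to 204 against NK cells. Without the members rich in other cells' transcripts, an alternative chosen after seeing the data, the lower calls were 450 and 387. The cause was not tested. Of 111 named or list genes called against αβ cells, 74 kept their call under all alternatives that could be computed, and of 94 against NK cells 79 did. None changed direction.

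Genotype counts with at least 50 UMIs per gene were 267 higher and 129 lower in quadriceps, 47 and 7 in diaphragm, and 16 and 6 in both, where more genes are measured. TMM-scaled totals gave 40 higher in quadriceps and 3 in both. Removing doublets gave 6 higher and 5 lower in diaphragm and 1 higher in both. Without the rich members 39 were higher in quadriceps, 4 in diaphragm and 1 (Tob2) in both. Muscle counts with at least 50 UMIs were 214 higher and 41 lower in mdx5cv, 140 and 36 in mdx5cv/Ccr2-/-, and 42 higher in both. TMM-scaled totals gave 91 higher and 3 lower in mdx5cv/Ccr2-/- mice. Removing doublets gave 49 higher in mdx5cv and 8 in both. Without the rich members 48, 31 and 7 were higher, and the log2 muscle ratio of Col3a1 in mdx5cv/Ccr2-/- mice reversed to -0.79. Without thinning, a UMI was found in 92.7% of γδ cells for Trdv4, 40.8% for Tcrg-V6, 54.6% for Ccr2, 1.83% for Lck and 65.1% for Blk. Thinning to 1500 UMIs gave 79.0%, 20.1% and 35.1% for Trdv4, Tcrg-V6 and Ccr2, and 35.1% for Blk. Depth limits the quadriceps most, where a gene with 0 UMIs in γδ cells can stand at up to 31.5 CPM.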

Other observations

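The γδ members made up 218 of 31077 kept barcodes, and the share of each gene's UMIs that they held differed widely. Of Trdv4, the Vδ segment, they held 79.0% of 1375 UMIs, and of Tcrg-V6 81.0% of 168. Of genes that encode the machinery of IL-17-producing cells they held 65.1% of the UMIs of Il23r, 59.0% of Blk and 38.9% of Kcnk1, while Sox13, which other cells of muscle also transcribe, had 5.69% of its 1935 UMIs in them. They held 17.3% of the Csf2 UMIs, 19.2% of those of Tnfsf11 and 66.7% of the 27 UMIs of Il22, a cytokine that acts on epithelium. Outside the γδ, αβ and NK gates and other T-lineage barcodes, 439 Trdc UMIs, 259 Trdv4 UMIs and 34 Il17a UMIs were counted, and which cells held them was not examined. Mki67, a marker of dividing cells, stood at 42.0, 41.5, 80.9 and 171 CPM in γδ cells, and at least 2 UMIs of Mki67 and Top2a were found in 2, 1, 3 and 3 members. A single member held 53 of the 119 Mki67 UMIs and the 5 highest held 84.9%, so these levels rest on few cells.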
